A study of Mus musculus with 4 samples.

Results

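The interferon-response genes described here are 40 of the 31053 genes that the count files list, chosen by symbol as genes that type I or type II interferon is known to induce. They were followed through the cell types of the mouse hippocampus after 2VO surgery, in which both common carotid arteries are clamped for a period and released so that the brain is reperfused. The question was which cell types changed these genes and which of the genes moved. They were grouped by role into 5 genes of signalling and transcription, 19 antiviral effectors, 4 sensors of foreign nucleic acid, 6 membrane or secreted proteins and 6 interferon-induced GTPases. Single-cell RNA of whole hippocampi was measured a week after surgery by droplet capture, where each RNA molecule carries a unique molecular identifier (UMI) and is read near its 3′ end. Sham mice had the same operation with the clamps released at once. Both groups were C57BL/6 mice, male by the study's methods and 12 weeks old by the labels, though the methods give a younger age. The sources name no transgene or drug in either group, and the tissue was dissociated warm with pronase and cleaned on a density gradient. By the methods cells were prepared from individual mice, and sham 1, sham 2 and 2VO 1 were analysed, while 2VO 2 was not analysed here. With 1 library in the 2VO group, that library and the surgery cannot be told apart in any result below.

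Interferons are secreted by cells that sense viral or misplaced nucleic acid, and they act on neighbouring cells through surface receptors. Type I interferon signals through kinases at its receptor to a complex, with STAT2 and IRF9 among its parts, that binds a DNA element called ISRE, while the response to type II interferon runs through an element called GAS. Microglia, the resident macrophages of the brain, are known to enter a state rich in interferon-induced transcripts in ageing, infection and injury, and endothelial cells carry many of these transcripts at rest.

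The start sites of these genes were searched for the letters of both elements, because these are the sequences through which interferon is known to act. RefSeq promoter windows of 300 bases (250 before the annotated start and 50 after it, build GRCm38.p6) matched 30 of the 40 genes, and *Ifi27l2a*, *Usp18*, *Mx1*, *Oas2*, *Ly6e*, *Parp14*, *Zbp1*, *Ifi204*, *Iigp1* and *Rtp4* had no entry. The ISRE letters, GAAA, any 2 bases and GAAA, searched on both strands and allowed to overlap, stood in 19 of the 30 (63.3%), against 3.99% of the 27025 genes of the table. The GAS letters, TTC, any 3 bases and GAA, which read the same on both strands, stood in 8 of the 30 (26.7%) against 9.55% of genes. These shares are descriptions, and a match of letters is not a binding site. Below are the upstream stretches of *Ifit3*, its close copy *Ifit3b*, *Rsad2*, *Ifitm2* and *Trim30a*, shown because these genes were called higher in a cell type here (all but *Ifit3b*) and hold a match before the start. Each is written 5′ to 3′ on the strand of its gene, with the ISRE letters in capitals, and those that begin with TTTC are the same letters read on the other strand. The matches begin 156 and 122 bases before the start of *Ifit3*, 188 and 154 before that of *Ifit3b*, 120 before that of *Rsad2*, 46 before that of *Ifitm2* and 36 before that of *Trim30a*.
Ifit3, chr19:34583353-34583436 (+): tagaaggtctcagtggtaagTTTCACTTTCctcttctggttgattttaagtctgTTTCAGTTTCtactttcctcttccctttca
Ifit3b, chr19:34607749-34607832 (+): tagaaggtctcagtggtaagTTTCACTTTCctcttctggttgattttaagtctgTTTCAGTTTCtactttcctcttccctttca
Rsad2, chr12:26456543-26456592 (-): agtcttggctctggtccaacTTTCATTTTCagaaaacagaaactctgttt
Ifitm2, chr7:140955978-140956027 (-): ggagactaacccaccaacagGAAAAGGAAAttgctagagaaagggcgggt
Trim30a, chr7:104465200-104465249 (-): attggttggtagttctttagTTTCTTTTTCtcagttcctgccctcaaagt
The stretches of *Ifit3* and *Ifit3b* are identical over their 84 bases. Reads of near-identical genes such as these, *Gbp2*, *Gbp3* and *Gbp7*, *Ifi204* and *Ifi207*, or *Ifitm1*, *Ifitm2* and *Ifitm3* may have been divided between copies or dropped by the counting, so that their separate values are uncertain.

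**Figure D1:**
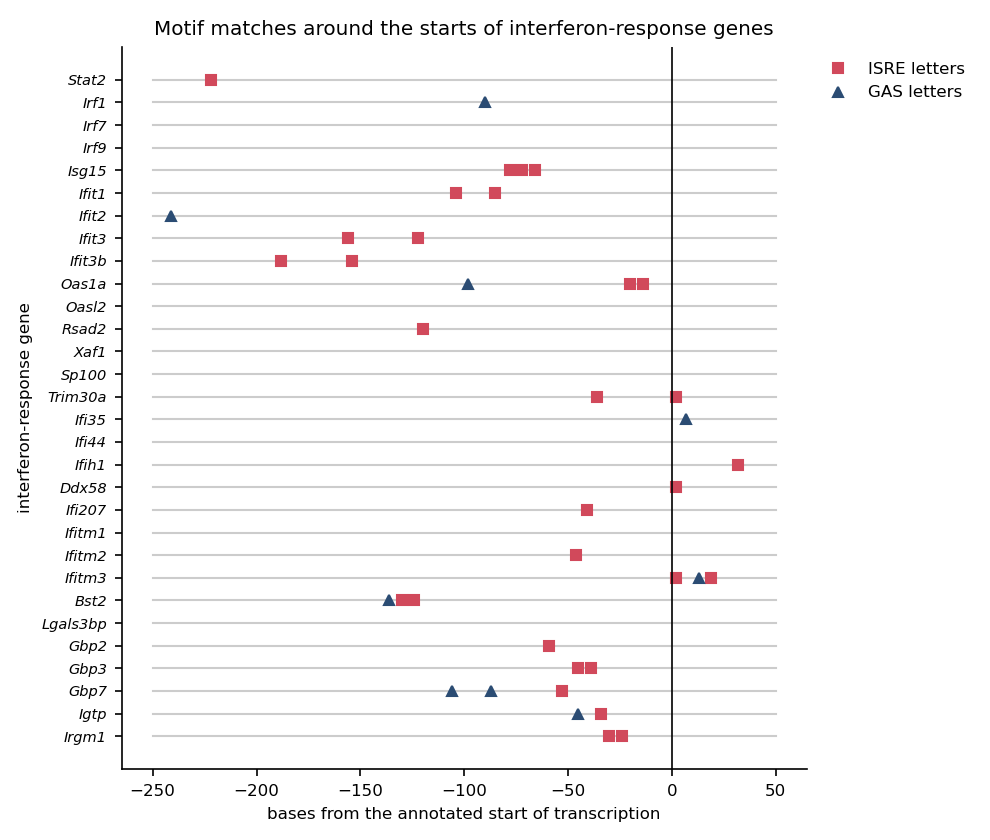
Places of the ISRE letters (squares) and GAS letters (triangles) around the annotated start of transcription (0, vertical line) in the 30 interferon-response genes with a promoter window, ordered by role; the x axis is in bases, from 250 before to 50 after the start, for the first window with that start. ISRE letters occur in 19 genes and GAS letters in 8.

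Only barcodes in which 650 or more genes were detected entered, which gave 5109, 5126 and 3912 cells in sham 1, sham 2 and 2VO 1 with medians of 8191, 5249 and 2311 UMIs. The kept cells of any pair of libraries shared 7 to 10 barcodes. The shallower 2VO library also held more RNA of other cell types in most classes, and these values stand beside the results they move with. Cells were clustered without the interferon genes, named from fixed markers, and the counts of each class were added up within a library. Levels are counts per 1000000 UMIs (CPM) after scaling for composition, and each fold change compares 2VO 1 with both sham libraries. To be called, a gene needed a fold over 1.5 and an adjusted p under 0.05 from edgeR's quasi-likelihood test, with the adjustment over all genes of the class. Each class was fitted with 1 residual degree of freedom, so the lone 2VO library was assumed to vary as the sham libraries do. The test shares its estimate of spread across the genes of a class, so a p-value need not follow a gene's own sham difference. Only the sham libraries inform that spread between mice, and the p-values hold nothing on how 2VO mice vary.

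Over 15 tested classes, 23 pairs of a gene and a class were called higher in 2VO and 1 was called lower. Microglia gave 9 of the higher calls, OPCs 5, CPECs (choroid plexus epithelial cells) 4, NPCs (neural progenitor cells) 2, and ECs (endothelial cells), VLMCs (vascular leptomeningeal cells) and GLUTNs (glutamatergic neurons) 1 each. By class, microglia had the transcription factor *Irf7* and effectors such as *Ifi27l2a*, *Oasl2*, *Zbp1* and *Rsad2*, ECs had *Ifitm1* and no effector, and outside microglia and ECs *Ly6e* was called in 4 classes and *Ifitm3* in 3. Of all genes tested, edgeR called 3.95% higher in microglia, 7.27% in OPCs, 2.59% in CPECs and 3.14% in NPCs. It called 2.77% higher in ECs, 1.2% in VLMCs and 1.14% in GLUTNs, and 6.12% lower in CPECs, where the lower call lay. DESeq2 made 6 of the 23 calls, *Ifi27l2a*, *Ifitm3* and *Lgals3bp* in microglia, *Ifitm1* in ECs and *Ly6e* in CPECs and OPCs. Over all genes DESeq2 called 21 of 9907 higher in microglia, 97 of 11993 in ECs, 31 of 12803 in CPECs and 89 of 12454 in OPCs.

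**Figure D2:**
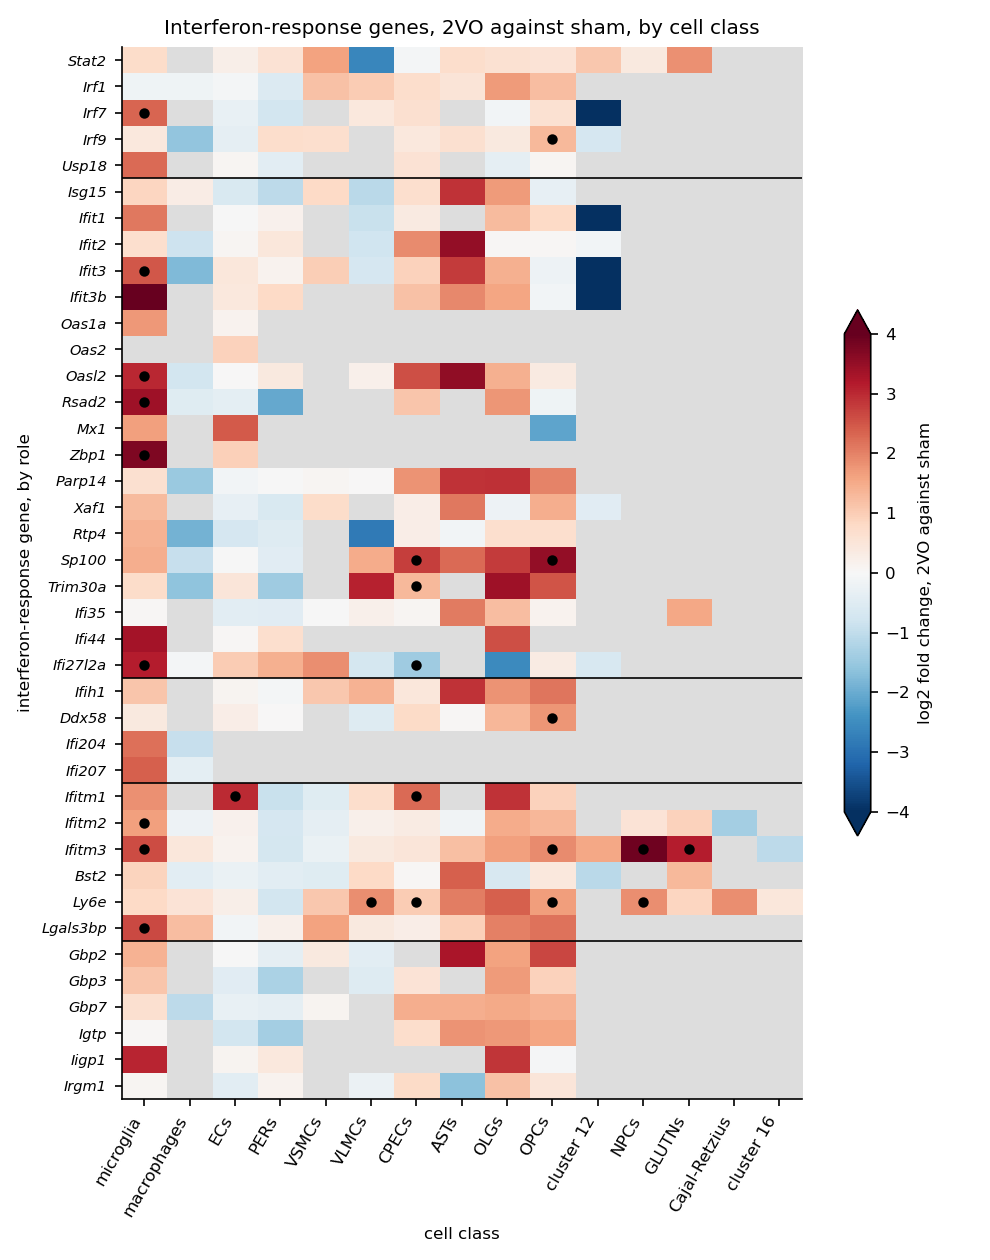
Log2 fold change of each interferon-response gene (y axis, grouped by role between the lines) in each tested cell class (x axis), 2VO 1 against both sham libraries; red is higher and blue lower in 2VO, the scale ends at 4 in either direction, grey was not tested, and dots mark the 23 higher calls and the 1 lower call. Microglia show red in 38 of 39 tested genes, ECs are pale apart from a few genes such as *Ifitm1*, and macrophages are blue in 16 of 20.

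Microglia showed the widest change by count. Of 39 interferon-response genes tested there, 38 had a fold change above 0, 35 lay above both sham libraries, where 41.2% of all genes did, and 9 were called higher. The call took 391 of the 9907 genes tested in the class (3.95%). The median log2 fold change of the 39 genes was 1.44, beside 0.004 over all genes tested, and 23 had an unadjusted p under 0.05 with a rise. With the cells that a doublet caller marked left out, almost all of them from the sham libraries, 22 were called, where 12.4% of genes were.

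Among the genes of signalling and transcription in microglia, *Irf7*, the factor that amplifies interferon production, rose from 10.6 and 13.4 CPM in sham 1 and sham 2 to 59.9 CPM in 2VO 1 (log2 fold change 2.32 ± 0.38, SE; adjusted p = 0.0162 in edgeR). *Usp18*, which removes ISG15 from proteins and dampens receptor signalling, had 2.90, 7.30 and 23.97 CPM and was not called. *Stat2* and *Irf9*, parts of the ISRE-binding complex, had 16.4, 12.2 and 23.97 CPM and 26.1, 25.6 and 34.95 CPM. *Irf1*, a factor known for its induction by type II interferon, was the gene that lay below both sham libraries, at 66.6, 74.2 and 61.9 CPM.

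The antiviral effectors gave 5 of the 9 calls, and 18 of the 18 tested were above 0. *Ifi27l2a*, a small membrane-associated protein, had 50.2, 54.8 and 461 CPM (log2 fold change 3.14 ± 0.24, SE; adjusted p = 0.00375 in edgeR). *Oasl2*, an oligoadenylate synthetase-like protein, had 4.83, 4.87 and 40.0 CPM (3.01 ± 0.54; adjusted p = 0.0211). Both stood several times above either sham mouse, and the sham mice lay close together. *Zbp1*, a sensor of Z-form nucleic acid that can trigger cell death, had 2.90, 1.22 and 30.0 CPM (3.73 ± 0.76; adjusted p = 0.0303). *Rsad2* (viperin), which makes a nucleotide that ends viral RNA chains, had 1.93, 2.43 and 23.97 CPM (3.396 ± 0.81; adjusted p = 0.0483). For *Zbp1* and *Rsad2* the sham levels rest on 1 to 3 counts a library, so the size of the fold is loosely set. *Ifit3*, of the family that binds foreign RNA, had 11.6, 4.87 and 47.9 CPM (2.48 ± 0.51; adjusted p = 0.0316). Its relatives *Ifit1* and *Ifit3b* and the effectors *Sp100*, *Xaf1* and *Ifi44* were above both sham libraries without being called. *Isg15*, the ubiquitin-like modifier that names the response, had 47.3, 29.2 and 69.9 CPM (0.85 ± 0.35) and was not called. *Oas2* had 0, 0 and 9 counts and was not tested.

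The membrane and secreted proteins gave the other 3 calls in microglia, and 6 of 6 were above both sham libraries. *Ifitm3*, which blocks virus entry at endosomes, had 74.3, 52.3 and 393 CPM (log2 fold change 2.62 ± 0.27, SE; adjusted p = 0.00424 in edgeR). *Lgals3bp*, a secreted glycoprotein that binds galectins, had 43.4, 32.9 and 241 CPM (2.64 ± 0.26; adjusted p = 0.00424). *Ifitm2* had 20.3, 19.5 and 61.9 CPM (1.63 ± 0.33; adjusted p = 0.0304). The sham mice differed little in these genes. *Bst2* (tetherin), which holds budding virus at the cell surface, had 217, 208 and 393 CPM, and *Ly6e* had 458, 499 and 823 CPM, and neither was called. The 4 sensors had a median log2 fold change of 1.66 and the 6 GTPases 0.88, with no gene of either group called by edgeR or by DESeq2. Of the sensors *Ifi204* had an unadjusted p of 0.0196 and *Ifi207* one of 0.0354, and of the GTPases *Iigp1* had one of 0.0164. Among the genes with promoter windows, the 19 with ISRE letters had a median of 1.12 in microglia and the 11 without had 1.44, and the 9 tested genes without a window had 2.21.

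**Figure D3:**
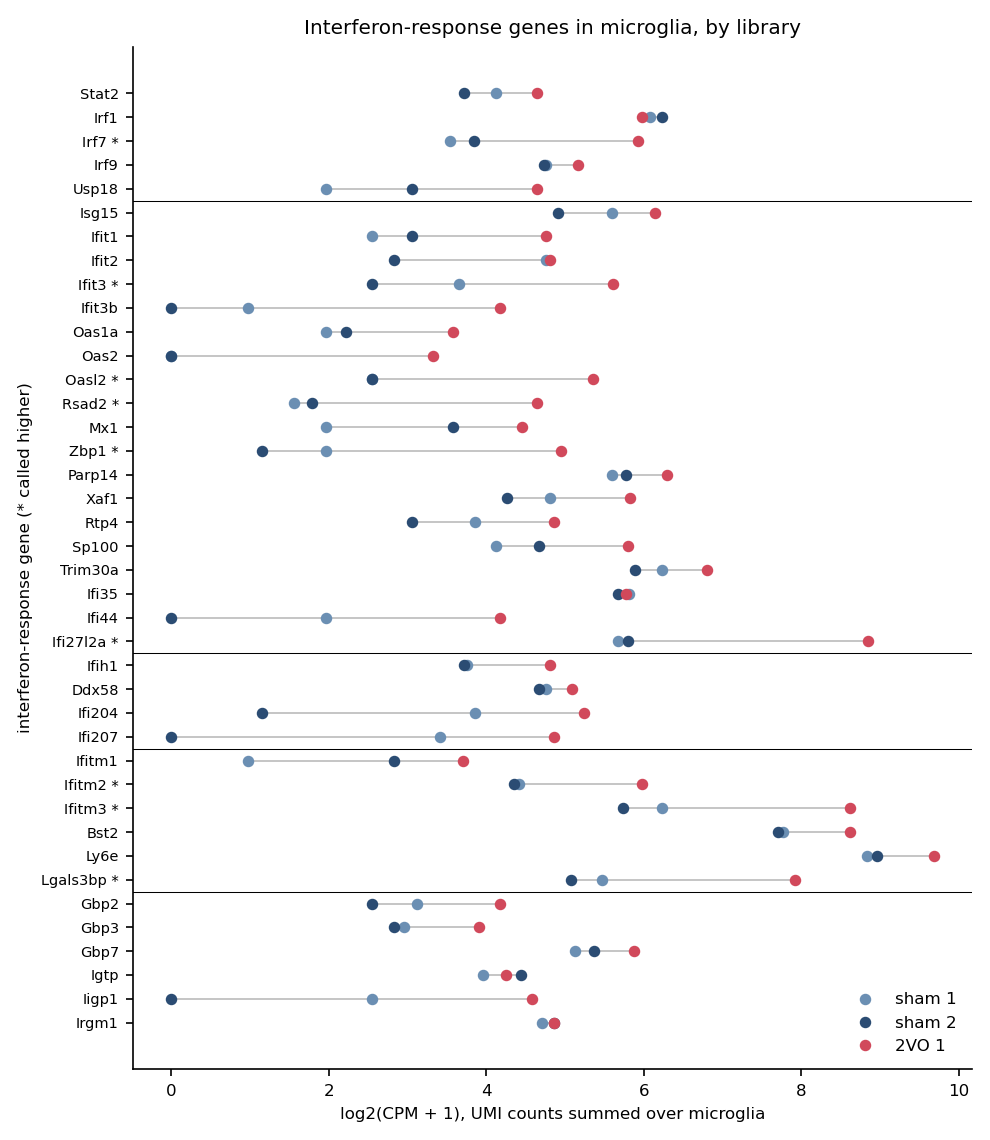
Level of the 40 interferon-response genes in microglia in each library, on a log2(CPM + 1) scale (x axis), grouped by role (y axis); points are libraries, grey lines span them, and asterisks mark the 9 genes called higher in 2VO. The 2VO 1 point lies right of both sham points for 35 of the 39 tested genes, and left of both for *Irf1*.

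RNA of other cells moved with these values. The summed level of 6 EC markers (*Cldn5*, *Flt1*, *Pecam1*, *Slco1a4*, *Ly6c1*, *Cdh5*) in microglia was 362, 534 and 2411 CPM, with 6 of 6 above both sham libraries and 0 at zero in any library. The 6 microglia markers summed to 21550, 23680 and 11650 CPM, with 6 of 6 below both sham libraries, and 5 T and NK cell markers to 0.965, 41.4 and 154 CPM, with 5 of 5 above and 4, 1 and 0 of the 5 at zero in sham 1, sham 2 and 2VO 1. Markers of OLGs (oligodendrocytes) summed to 6577, 676 and 6995 CPM in microglia and those of CPECs to 2396, 1045 and 4868 CPM. The ratio of *Ifi27l2a* to the EC markers in microglia was 0.139, 0.103 and 0.191, while in ECs it was 0.00143, 0.00223 and 0.00428, lower than in microglia in each library. For *Ifitm3* the ratio was 0.205, 0.0980 and 0.163 in microglia and 0.0992, 0.0895 and 0.118 in ECs, which is of the same order. Of the 9 called genes, the ratio in 2VO 1 was above both sham libraries for 4 (*Ifi27l2a*, *Oasl2*, *Rsad2* and *Zbp1*), between them for 3 (*Ifitm3*, *Lgals3bp* and *Ifit3*) and below both for 2 (*Irf7*, at 0.0293, 0.0251 and 0.0249, and *Ifitm2*). When the microglia with any EC marker UMI were left out, 180, 152 and 187 of 215, 204 and 388 cells remained. In them 28 of the genes could be tested, 24 lay above both sham libraries and 2 were called, *Ifi27l2a* (47.8, 55.6 and 589 CPM) and *Ifitm3* (37.3, 35.4 and 291 CPM). Only 0.0358% of genes were called higher in those cells. The median log2 fold change there was 1.13 over the tested genes of the response and -0.02 over all genes tested. The share of all genes above both sham libraries was not taken there.

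The microglia came from 2 clusters that the libraries shared unequally. Cluster 17, led by *Gpr34*, *Rgs1*, *Ccl4* and *P2ry12*, held most sham microglia, with 141, 115 and 20 cells, and cluster 11, led by *Mpeg1*, *Csf1r* and *Lag3*, held most 2VO microglia, with 74, 89 and 368 cells. Within cluster 11 alone, 20 of 21 tested genes were above 0 and 16 were above both sham libraries. *Lgals3bp* was called there, with 37.4, 47.5 and 295 CPM, in a setting that called 0.153% of genes. Within cluster 17, with 20 cells in 2VO, 16 of 19 were above both sham libraries and none was called by edgeR, which called no gene of any kind higher there (0%), and 5 had an unadjusted p under 0.05. The median log2 fold changes were 0.71 in cluster 11 and 0.85 in cluster 17, beside -0.04 and -0.16 over all genes tested. The share of all genes above both sham libraries was not taken within clusters. The part of the cluster makeup in the class result was not tested beyond these values.

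Several of the genes were often detected in the same microglial cells. From 24 genes of the signalling and effector groups, each cell was scored for how many had a UMI after thinning to 1000 UMIs. At least 3 of the 24 were found in 1.40% of the microglia of sham 1 (exact 95% interval 0.290 to 4.04), 3.43% of sham 2 (1.39 to 6.94) and 12.5% of 2VO 1 (9.36 to 16.3). Without thinning the shares were 15.8%, 14.7% and 29.6%. Only counting error is in these intervals. In OPCs, which have few of these transcripts, the thinned shares were 0.512%, 0.929% and 1.89%, and the intervals of the libraries overlapped. For at least 1 of the 24 the OPC shares were 12.2%, 12.1% and 26.4%. There the 2VO 1 interval (22.5 to 30.6) lay above both sham intervals. Microglia were not alone in a higher point share of cells with at least 3. In ASTs (astrocytes) this share was 0 of 214, 2 of 231 and 4 of 39 cells (10.3%, 2.87 to 24.2) and in NPCs 0 of 116, 0 of 62 and 3 of 29 (10.3%, 2.19 to 27.4). The exact intervals of sham 1 and sham 2 reached up to 1.71% and 3.09% in ASTs and up to 3.13% and 5.78% in NPCs. The 2VO 1 interval thus overlapped that of sham 2 in ASTs and those of both sham libraries in NPCs. Without thinning, 47 of 388 2VO microglia (12.1%) had at least 5 of the 24 genes and held 56.2% of the counts of these genes. In sham 1 and sham 2, 9 of 215 and 9 of 204 microglia did, and held 42.1% and 37.1%. These cells were picked by the same genes, and their share of the microglia differs between libraries. The 11, 10 and 19 microglia with the most of these counts in sham 1, sham 2 and 2VO 1 held 44.9%, 40.4% and 43.8%. The 47 2VO cells had a median of 3694 UMIs against 1844 for the 2VO microglia as a whole. Of 33 2VO microglia with *Oasl2*, 31 had UMIs of at least 2 other genes of the 24, against 133 of 355 without it. For *Irf7* this was 29 of 33 against 135 of 355, for *Ifit2* 15 of 20 against 148 of 368 and for *Usp18* 15 of 21 against 149 of 367, and over 8 such genes the share ran from 71.4% to 95% with the gene and from 36.1% to 41.3% without it. In sham 1 and sham 2, where few microglia had these genes, the counts were 4 of 4 and 3 of 3 for *Oasl2*, 5 of 8 and 7 of 8 for *Irf7* and 2 of 5 and 1 of 5 for *Ifit2*. Cells with more UMIs are likelier to hold any gene, and the part of depth in these counts was not tested. Thinned ECs held at least 3 of the 24 genes in 23.5%, 21.5% and 26.3% of cells in sham 1, sham 2 and 2VO 1. The microglial shares and counts were not repeated in microglia without EC marker UMIs, so the part of EC RNA in them was not tested.

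**Figure D4:**
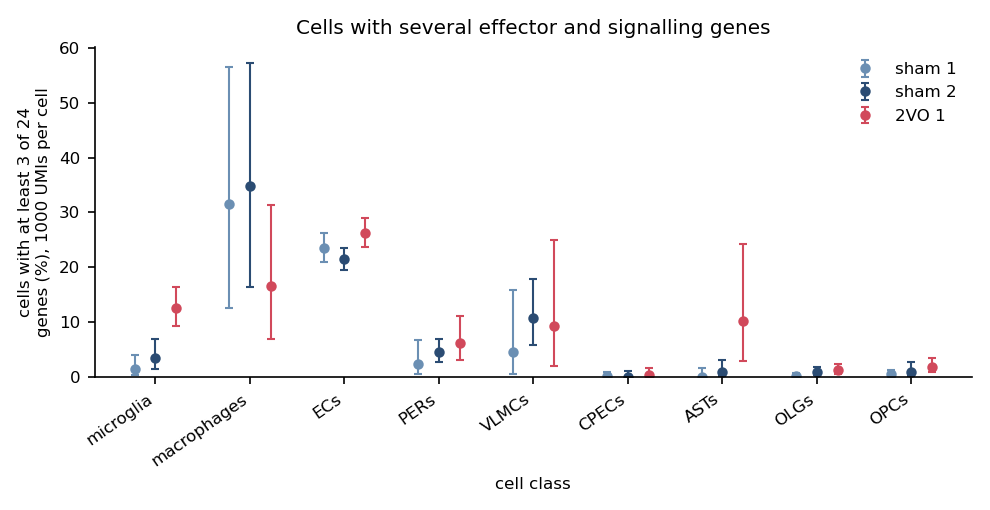
Share of cells (y axis, percent) with UMIs of at least 3 of 24 signalling and effector genes after thinning each cell to 1000 UMIs, by cell class and library; points are shares and bars exact 95% binomial intervals. The 2VO 1 microglia, at 12.5%, lie above the sham intervals, while ECs are between 21.5% and 26.3% in the 3 libraries.

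Genes around the response were read from a list of 10 interferon genes, 6 receptor genes, 11 signalling genes, 11 sensors and 51 further targets. None of the 10 interferon genes reached the level needed for a test in any class. *Ifnb1*, the first type I interferon that infected cells make, had 7 UMIs in 4 microglia of 2VO 1 and 0 in the sham libraries. Without composition scaling this was 7.58 CPM, and the sham counts of 0 allow up to 2.74 and 3.41 CPM in microglia. *Ifng*, the type II interferon of T and NK cells, had 9 UMIs in 6 cells of 2VO 1, 4 of them in 1 microglial cell, and 1 UMI in sham 2. *Ifnk* had 1 UMI in each of sham 1 and 2VO 1, *Ifna2* had 1 in 2VO 1, and the other 6 had none. Of the receptors, *Ifngr1* fell in microglia (680, 761 and 295 CPM; log2 fold change -1.29 ± 0.24, SE; adjusted p = 0.0244 in edgeR) and so did *Ifngr2* (241, 208 and 96.9 CPM; -1.21 ± 0.26; adjusted p = 0.0363), in a class where 2.38% of genes were called lower. These are the chains of the type II receptor, and they fell as the summed microglia markers did. *Ifnar1*, a chain of the type I receptor, had 69.5, 62.1 and 115 CPM in microglia without a call. It was called higher in NPCs (55.9, 65.0 and 210 CPM; 14 counts in 2VO 1; 3.14% of genes called) and OPCs (45.5, 50.0 and 87.8 CPM; 7.27%). In ECs it had 342, 296 and 288 CPM. EC markers summed to 109, 18.6 and 1710 CPM in NPCs and 110, 331 and 999 CPM in OPCs, and their part in these calls was not tested.

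The transcription factor *Stat3*, used by many cytokines, rose in microglia from 68.5 and 63.3 to 145 CPM (log2 fold change 1.13 ± 0.24, SE; adjusted p = 0.0330 in edgeR). Of the 51 further targets 33 were tested in microglia, 26 were above 0 and 3 were called, beside the 3.95% of all genes, the GTPase *Gbp5* (9.65, 7.30 and 50.9 CPM), *Slfn5* (17.4, 12.2 and 81.9 CPM) and the ubiquitin ligase *Trim25* (12.6, 18.3 and 54.9 CPM). None of the 11 sensors tested in microglia was called by edgeR, and 1 of the 11 was above 0, with a median of -0.54. In OPCs the 5 targets called higher were *Slfn5*, *Adar*, *Eif2ak2*, *Parp12* and *Gbp9*, out of 24 tested, where 7.27% of all genes were called, and the myeloid factor *Irf8* was called there too, at 0.297, 0.431 and 9.63 CPM. Elsewhere *Socs3* and *Herc6* were higher and *Ticam1* lower in CPECs, *Stat3* was higher in GLUTNs, and *Cxcl10*, a chemokine that draws T cells, was higher in ASTs (0.771, 2.71 and 72.6 CPM, 11 counts in 2VO 1).

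ECs held the interferon-response genes in the sham libraries already, with at least 3 of the 24 genes in 23.5%, 21.5% and 26.3% of thinned cells, and 20 of 38 tested genes were above 0 with a median log2 fold change of 0.02, where all genes had -0.009. In this class 16 of 38 were above both sham libraries, against 40% of all genes, and 332 of 11993 genes (2.77%) were called higher. The called gene was *Ifitm1*, with 13.5, 22.6 and 147 CPM (2.999 ± 0.25, SE; adjusted p = 0.000521 in edgeR). *Ifi27l2a* had 22.7, 38.7 and 62.5 CPM, *Rtp4* 98.6, 90.2 and 58.8 CPM and the GTPase *Igtp* 44.3, 48.8 and 28.0 CPM, each beyond both sham mice without a call. *Isg15* had 278, 334 and 199 CPM and *Ifit1* 143, 108 and 126 CPM. The microglia markers in ECs summed to 44.3, 39.9 and 166 CPM with 6 of 6 above both sham libraries, and in the ECs without a UMI of them *Ifitm1* was called again, at 14.1, 19.6 and 102 CPM, where 0.349% of genes were. The largest EC cluster was cluster 0 in sham 1, cluster 2 in sham 2 and cluster 5 in 2VO 1.

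The *Ifitm1* counts of 2VO 1 lay in a small group of ECs. Cluster 21, led by *Lcn2*, *Lrg1*, *Ackr1*, *Ptgs2*, *Vwf* and *Sele*, genes known from venous and inflamed endothelium, held 473 of the 511 counts, with 124 cells of 1201, beside 16 and 38 cells in the sham libraries. Without composition scaling its *Ifitm1* level was 80.0, 331 and 792 CPM. Outside it the gene had 11.6, 13.02 and 13.3 CPM (log2 fold change 0.11 ± 0.31, SE; adjusted p = 0.865 in edgeR, with 0.477% of genes called). Within it the change was 1.96 ± 0.50 (adjusted p = 0.0866, with 0.714% of genes called). Cluster 21 made up more of the ECs in 2VO 1 than in either sham library, and the higher level within it did not pass the test.

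Clustering the ECs again without the interferon genes gave groups with arterial, venous and fenestrated markers. In the venous group (66, 79 and 105 cells) *Ifitm1* had 29.5, 192 and 990 CPM (log2 fold change 3.18 ± 0.37, SE; adjusted p = 1.57e-14 in edgeR) and *Ifitm2* 341, 562 and 1189 CPM (1.40 ± 0.39; adjusted p = 0.0155), where 1.86% of genes were called higher. The sham mice differed several-fold in *Ifitm1* there, and the adjusted p, with spread shared across genes, does not measure that difference. In cluster 21, whose leading genes *Lcn2*, *Lrg1* and *Ackr1* also led the venous group, *Ifitm1* was not called. *Ifitm3* in the venous group had 2087, 2256 and 4245 CPM and was not called. In the arterial group (191, 244 and 148 cells) the TRIM protein gene *Trim30a* was called, at 81.1, 77.6 and 152 CPM (0.94 ± 0.27; adjusted p = 0.0296; 1.55% of genes called). In the fenestrated group 12 genes were tested and 0 called, by edgeR at an unadjusted p too and by DESeq2, as was no gene of any kind (0%). DESeq2 called none of the 3 genes in these groups.

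**Figure D5:**
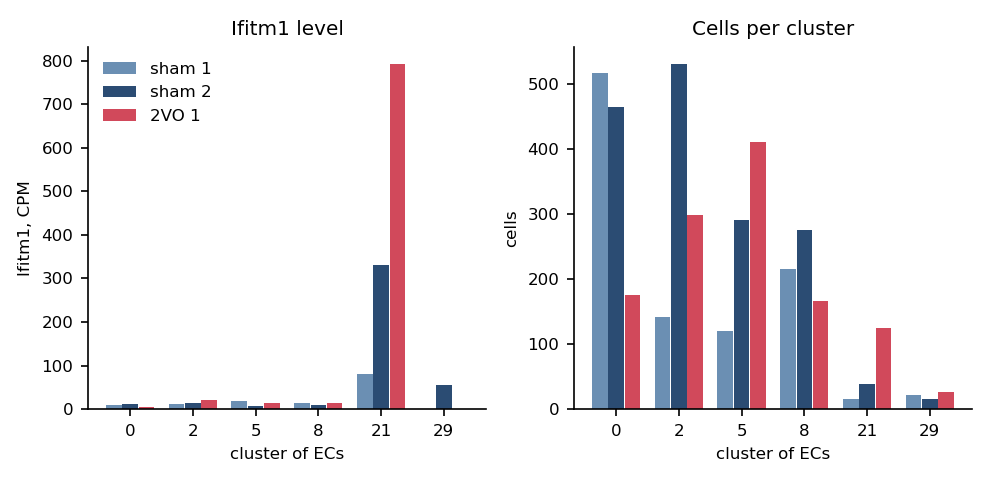
*Ifitm1* level in CPM without composition scaling (left) and number of cells (right) in the 6 clusters of ECs, for each library. Cluster 21 holds 80.0, 331 and 792 CPM in sham 1, sham 2 and 2VO 1 and 16, 38 and 124 cells; bars are single values with no error.

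In the cells of the vessel wall no gene of the response was called except *Ly6e* in VLMCs, the fibroblast-like cells of the meninges (116, 123 and 438 CPM; log2 fold change 1.86 ± 0.38, SE; adjusted p = 0.00580 in edgeR; 1.2% of genes called). The *Ly6e* call in VLMCs held in 5 of 8 other settings. It was lost with DESeq2 and with marked doublets left out (adjusted p = 0.156 in edgeR). EC markers in VLMCs summed to 649, 708 and 1858 CPM, with 5 of 6 above both sham libraries. *Isg15* in VLMCs had 169, 404 and 140 CPM, *Irf1* 63.3, 60.4 and 124 CPM and *Bst2* 105, 222 and 297 CPM. In PERs (pericytes) the direction leaned the other way, with 21 of 34 tested genes below 0 and a median of -0.39. edgeR called 0 genes of any kind higher there (0%), 2 interferon-response genes were lower at an unadjusted p under 0.05, and none was called by DESeq2. PERs had *Isg15* at 131, 205 and 83.2 CPM, *Gbp3* at 48.2, 88.6 and 29.4 CPM, *Rsad2* at 19.3, 55.3 and 9.79 CPM and *Ifi27l2a* at 7.70, 28.4 and 56.3 CPM. EC markers in PERs summed to 3396, 7822 and 2655 CPM, with 4 of 6 below both sham libraries, and microglia markers to 46.2, 45.5 and 330 CPM, with 6 of 6 above. *Isg15*, *Gbp3* and *Rsad2* had the same order over the libraries as the EC markers, whose part in these values was not tested. In VSMCs (vascular smooth muscle cells) 13 of 18 were above 0, edgeR and DESeq2 called 0 (0.24% of genes called higher by edgeR) and 2 had an unadjusted p under 0.05. These were *Irf1* (42.7, 58.7 and 117 CPM) and *Isg15* (86.7, 66.8 and 133 CPM), while *Bst2* had 296, 199 and 177 CPM and *Xaf1* 16, 27.6 and 38.2 CPM.

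CPECs, which line the choroid plexus and make cerebrospinal fluid, had 29 of 31 tested genes above 0 with a median log2 fold change of 0.68. The 4 called higher were *Ifitm1* (3.11, 1.06 and 11.4 CPM; 2.27 ± 0.37, SE; adjusted p = 0.000576 in edgeR), *Ly6e* (30.0, 41.4 and 70.7 CPM; adjusted p = 0.00424), *Trim30a* (3.19, 3.53 and 8.26 CPM; adjusted p = 0.0127) and the nuclear body protein gene *Sp100* (0.255, 0.353 and 1.98 CPM; adjusted p = 0.0364). In CPECs 2.59% of genes were called higher and 6.12% lower. The lower call was *Ifi27l2a*, with 38.6, 99.5 and 25.3 CPM (-1.43 ± 0.35; adjusted p = 0.00986), in which the sham mice differed by more than sham 1 and 2VO 1 did. Its direction turned, to 0.65 when every cell was thinned to 1000 UMIs and to 0.84 in cells without UMIs of EC or microglia markers. EC markers summed to 68.8, 96.4 and 178 CPM and microglia markers to 28.8, 28.0 and 70.3 CPM, each with 6 of 6 above both sham libraries, and in the CPECs without UMIs of either list 0 of 11 tested genes were called, by edgeR, beside 0.358% of all genes, with 3 at an unadjusted p under 0.05.

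OPCs (oligodendrocyte precursor cells) had 28 of 34 tested genes above 0 with a median of 0.87, and 5 called higher where 7.27% of genes were. The count moved with the setting. It was 0 when barcodes with 200 or more genes entered, where no gene of any kind was called (0%), 12 with RLE scaling (11.3%), 13 with marked doublets left out (13.6%) and 13 with finer clusters (10.9%). The 5 were *Ly6e* (34.3, 49.6 and 131 CPM; log2 fold change 1.67 ± 0.28, SE; adjusted p = 0.0242 in edgeR), the RNA sensor *Ddx58* (11.9, 9.06 and 36.8 CPM; adjusted p = 0.0277), *Sp100* (0.743, 3.02 and 17.6 CPM; adjusted p = 0.0285), *Irf9* (9.66, 9.49 and 23.8 CPM; adjusted p = 0.0483) and *Ifitm3* (11, 39.2 and 85.5 CPM; adjusted p = 0.0492). Other genes in OPCs did not follow, with *Isg15* at 21.4, 11.2 and 13.6 CPM and *Ifit3* at 49.2, 25.4 and 33.4 CPM. EC markers in OPCs summed to 110, 331 and 999 CPM and microglia markers to 36.7, 36.2 and 239 CPM, each with 6 of 6 above both sham libraries. The ratio of *Ifitm3* to the EC markers stayed at 0.0997, 0.119 and 0.0856, near its 0.0895 to 0.118 in ECs. In OPCs without UMIs of either list, edgeR called 0 of 23 tested genes and no gene of any kind (0%), with 5 at an unadjusted p under 0.05. Most 2VO OPCs were in cluster 15 (49, 32 and 386 cells) and most sham OPCs in cluster 4 (545, 264 and 62 cells). Within cluster 15 *Ifitm3* had 104.5, 378 and 118.5 CPM (-0.97 ± 0.49), *Irf9* changed by -0.19 and *Ly6e* by 0.06, and *Isg15* was called lower (21.3, 103 and 16.3 CPM), in a setting that called 6.58% of genes lower. There 14 of 25 tested genes were above 0, with a median of 0.06, and within cluster 18 it was 9 of 15, with 0.20. Within cluster 4, 16 of 18 were above both sham libraries, a share not taken over all genes there. The median of the 18 was 1.18, beside -0.02 over all genes tested. None was called higher in cluster 4, where 10 of 11536 genes were.

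In OLGs 29 of 34 tested genes were above 0, with a median of 1.55, and 28 lay above both sham libraries where 43.1% of all genes did. No gene of any kind was called higher by edgeR (0%). Unadjusted, 9 interferon-response genes were higher and 2 lower at p under 0.05, and DESeq2 called 0 higher and 1 lower. Over all 12248 genes tested in OLGs, DESeq2 called 124 higher and 854 lower. Other settings did give calls in OLGs, with 9 interferon-response genes higher and 1 lower when marked doublets were left out (7.61% of genes higher), 6 higher without a filter on low counts (5.28%) and 2 higher when thinned to 1000 UMIs (8.11%). *Ly6e* had 5.82, 28.8 and 87.2 CPM, *Lgals3bp* 1.75, 2.24 and 7.93 CPM and *Oasl2* 3.36, 4.34 and 10.2 CPM. *Ifi27l2a* moved against these, with 101, 202 and 26.1 CPM (log2 fold change -2.53 ± 0.52, SE). OLGs of the 2VO library came mostly from cluster 3 (60, 203 and 621 cells) and those of the sham libraries from clusters 1 and 7. Within cluster 3 *Ifi27l2a* was called lower (203, 590 and 29.0 CPM; -3.81 ± 0.50; adjusted p = 0.000639; 11% of genes called lower), and *Ifitm3* (9.65, 12.5 and 30.8 CPM) and *Ly6e* (3.22, 4.38 and 29.0 CPM) were called higher (7.61% of genes). Within cluster 25 *Ifi27l2a* was again called lower, at 47.7, 505 and 47.3 CPM, in a setting that called 3.89% of genes lower, and sham 1 and 2VO 1 were alike there. EC markers in OLGs summed to 70.6, 297 and 749 CPM and microglia markers to 22.4, 28.1 and 173 CPM, with 6 of 6 above both sham libraries in each list. Cluster 12, whose cells had OLG markers but whose leading genes *Klk6* and *Enpp6* kept it unnamed, had 9 of 11 tested genes below 0, with 0 called by edgeR and DESeq2, 1 at an unadjusted p under 0.05 and 1.65% of genes called higher. There *Ifi27l2a* had 215, 268 and 154 CPM, *Stat2* 10.5, 15.3 and 26.6 CPM, *Ifit3* 3.79, 22.7 and 0 CPM and *Bst2* 15.7, 32.4 and 10.6 CPM.

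ASTs had 21 of 24 tested genes above 0 and 20 above both sham libraries (39.9% of all genes), with a median of 1.98. edgeR called 0 of them where it called 0.114% of genes, 13 reached an unadjusted p under 0.05, and by DESeq2 the count was 0. It was 5 with marked doublets left out (*Ly6e*, *Ifitm3*, *Bst2*, *Ifit2* and *Ifit3*; 0.853% of genes), 5 with barcodes of 200 or more genes (0.565%) and 10 without a filter on low counts (0.753%). *Ifit3* had 18.5, 10.2 and 99.0 CPM, *Bst2* 11.6, 25.8 and 99.0 CPM, *Ly6e* 18.5, 57.0 and 158 CPM and *Ifitm3* 52.4, 85.5 and 158 CPM, on 15 to 24 counts each in 2VO 1. The 2VO library held 39 ASTs, and 5 of them carried 76.6% of its counts of the 24 signalling and effector genes. Thinned to 1000 UMIs a cell, 4 genes could be tested and their median was 0.40. Microglia markers in ASTs summed to 133, 199 and 416 CPM, with 5 of 6 above both sham libraries, and EC markers to 291, 516 and 666 CPM, with 3 of 6 above.

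The neuronal classes expressed few of the genes at a level that could be tested. In NPCs 4 genes were tested and *Ifitm3* (8.38, 12.4 and 150 CPM; log2 fold change 3.89 ± 0.85, SE; adjusted p = 0.00153 in edgeR; 10 counts in 2VO 1) and *Ly6e* (53.1, 65.0 and 210 CPM; adjusted p = 0.00986) were called, beside 3.14% of genes, while *Ifitm2* had 47.5, 55.7 and 75.0 CPM. In GLUTNs 6 were tested and *Ifitm3* was called (7.89, 13.6 and 105 CPM; 3.15 ± 0.77; adjusted p = 0.00772; 12 counts in 2VO 1; 1.14% of genes called), while *Ly6e* had 160, 134 and 263 CPM. EC markers summed to 109, 18.6 and 1710 CPM in NPCs and to 39.5, 212 and 1498 CPM in GLUTNs, with 6 of 6 above both sham libraries in each. The NPCs without UMIs of EC or microglia markers gave *Ly6e* a log2 fold change of -0.37. In Cajal-Retzius neurons edgeR and DESeq2 called 0 of 2 tested genes (0.585% of genes called higher), with 1 higher and 1 lower at an unadjusted p under 0.05, and *Ifitm2* had 152, 205 and 67.6 CPM. In cluster 16, led by *Meg3*, *Gad2* and *Syt1* and left unnamed, edgeR called no gene of any kind higher (0%), DESeq2 called neither of the 2 tested genes and neither had an unadjusted p under 0.05. *Ifitm3* there had 70.1, 43.5 and 26.9 CPM and *Ly6e* 49.8, 151 and 141 CPM.

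In macrophages, which belong to the same lineage group as microglia, few of the tested genes lay higher in 2VO. Of 20 tested genes 16 were below 0 and 12 lay below both sham libraries, against 34.6% of all genes, with a median log2 fold change of -0.60. When cells were thinned to 1000 UMIs the median turned to 0.17, with 3 of the 5 genes that could be tested above 0. No interferon-response gene was called by edgeR, which called 4.98% of genes higher, or by DESeq2, and at an unadjusted p under 0.05 there were 1 higher and 3 lower. *Ifi204* had 330, 223 and 144 CPM, *Ly6e* 729, 730 and 1074 CPM, *Ifitm3* 782, 1064 and 1266 CPM and *Ifi207* 417, 371 and 297 CPM. The class held 19, 23 and 42 cells. Its own 6 markers summed to 12830, 10450 and 6513 CPM and the 6 microglia markers to 11170, 13340 and 7348 CPM, with 4 of 6 below both sham libraries in each list. EC markers in it summed to 34.7, 98.9 and 3588 CPM with 6 of 6 above both sham libraries, and 5 of 6 were at 0 in sham 1 and 2 of 6 in sham 2. Pericyte markers summed to 0, 12.4 and 1429 CPM there, and the part of either list in the result was not tested.

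Whether a class changed differently from others was tested in 1 model over the 15 classes with library as a block. Set against the mean response of the other classes, 0 of the 40 genes passed in any class by edgeR, where 0.0566% of all 203025 gene and class tests did. This count of 0 did not hold without the filter on low counts or with marked doublets left out. At an unadjusted p under 0.05 there were 0 to 6 of 40 per class, with 3 in microglia. Comparisons of microglia with 1 class at a time were chosen after the class results were known. Against ECs, *Oasl2* rose more in microglia by 2.95 ± 0.68 (log2, SE; adjusted p = 0.0291 in edgeR), *Irf7* by 2.58 ± 0.62 (adjusted p = 0.0343) and *Lgals3bp* by 2.64 ± 0.45 (adjusted p = 0.00289), and 36 of 40 differences were above 0 (0.946% of genes called higher). Against CPECs, *Ifi27l2a* differed by 4.35 ± 0.57 (adjusted p = 0.000988) and *Lgals3bp* by 2.28 ± 0.43 (adjusted p = 0.0148), with 0.51% of genes called. Against macrophages edgeR called 0 genes of any kind higher (0%), and 15 of the 40 had an unadjusted p under 0.05, among them *Ifi27l2a* with a difference of 3.11 ± 0.60. DESeq2 was not run on these contrasts.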

How the data were processed

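Single-cell libraries of hippocampus were made with a 10x droplet kit. The authors aligned the reads and counted UMIs with Cell Ranger on mm10, and the submitters' notes also name Seurat 3.2.2. The deposited matrices hold raw UMI counts per gene and barcode for sham 1, sham 2 and 2VO 1, with 65287386, 40459614 and 18754480 UMIs. 2VO 2 was not analysed here. Barcodes with at least 650 genes and genes seen in at least 20 cells were kept. After scaling to 10000 counts a cell, 2000 variable genes, 30 components and 15 neighbours were used for Leiden clustering at resolution 1 (scanpy 1.11.5) without the interferon genes, and clusters were named from 26 marker lists. Scrublet marked 235 cells as doublets, 2.00%, 2.58% and 0.0256% of each library; they stayed in, since 1 marked cell in 2VO 1 was too few to rely on, and their removal was an alternative. The counts of each class were added up within a library, and classes with at least 10 cells in each library were tested by edgeR's quasi-likelihood test (4.0.16, R 4.3.3, TMM scaling, Benjamini-Hochberg adjustment over all genes of the class); DESeq2 1.42.0 was an alternative. Class differences were tested in 1 model with library as a block. The tests were checked on simulated data. A permutation of 3 libraries cannot give a p below 0.333. Floors for a count of 0 are 3 counts, and intervals are exact binomial at 95%. Values in every library were given for each gene called in a class and for up to 4 further genes per class with the smallest p, and of the other pathway genes for those called. The genes, lists and this rule were chosen with earlier results of these data known. The result of 1 gene of the pathway lists is not reported here.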

Additional observations from a re-analysis of the deposited data

Results flagged for a closer look

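The difference in response between microglia and another cell class passed edgeR's test for 5 pairs of a gene and a class, in comparisons chosen after the class results were known. Against ECs the log2 difference was 2.95 for *Oasl2*, 2.58 for *Irf7* and 2.64 for *Lgals3bp*. Against CPECs it was 2.28 for *Lgals3bp* and 4.35 for *Ifi27l2a*, and for the latter the fall in CPECs turned to a rise under thinning. Each rests on 1 2VO library, in whose microglia the EC markers summed to 2411 CPM beside 362 and 534 CPM in the sham libraries.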

How the results depend on the processing

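With 1 2VO library, 1 residual degree of freedom a class and 388 shallow 2VO microglia, changes in sparse genes and small classes were poorly resolved. The count of 23 higher calls became 6 with DESeq2, 61 without a filter on low counts and 57 with doublets removed (which took almost only sham cells). It became 13 with cells thinned to 1000 UMIs and 4 with cells holding EC or microglia marker UMIs left out. Higher calls over all genes moved too. In microglia 391 became 21, 973, 1196, 227 and 3 in these settings, in that order. With doublets removed they went from 905 to 1660 in OPCs and from 0 to 880 in OLGs. The lower call became 0 with RLE scaling, with barcodes of at least 200 genes and without marker-holding cells, 2 with doublets removed or at Leiden resolution 2, and 5 without the filter. With DESeq2 and with thinning it stayed 1, but that call lay in OLGs, and the call of *Ifi27l2a* in CPECs was lost there too. The median in ECs was 0.044 with the interferon genes kept for clustering, 0.053 thinned and 0.072 without marker-holding cells. In OPCs it was 1.57 at resolution 2 and 1.26 thinned, and in CPECs 0.56 with the genes kept, 0.91 thinned and 0.54 without marker-holding cells. In ASTs it was 1.69 with at least 200 genes, 0.40 thinned and 0.39 without marker-holding cells. In macrophages it was -0.66 with DESeq2, -0.44 without the filter, -0.28 with at least 200 genes, -0.26 with the genes kept, -0.34 without marker-holding cells and 0.17 thinned. Leaving out a sham library, with no test left, gave medians of 1.14 to 1.67 in microglia, 0.070 to 0.094 in ECs, 0.70 to 1.23 in OPCs, 0.88 to 2.20 in OLGs, 0.60 to 0.67 in CPECs, 1.34 to 1.65 in ASTs and -0.56 to -0.51 in macrophages. The count of 0 genes differing from the mean of the other classes became 10 without the filter and 23 with doublets removed. The share of all gene and class tests called in these settings is not given here, so neither count can be set beside it. The 3 calls within EC groups became 0 with DESeq2 and 6 without the filter. Without thinning, 15.8%, 14.7% and 29.6% of microglia had at least 3 of 24 genes. Directions turned for *Ifi27l2a* in CPECs (0.65 thinned, 0.84 without marker-holding cells), *Ly6e* in NPCs (-0.37 without them) and, within cluster 15 of the OPCs, *Ifitm3* (-0.97) and *Irf9* (-0.19). The cause was not tested. Of 24 called values, 6 passed the threshold in each setting that kept classes whole and gave a value, *Ifi27l2a*, *Ifitm3* and *Oasl2* in microglia, *Ifitm1* in ECs and CPECs and *Trim30a* in CPECs. *Oasl2* in microglia and *Ifitm1* and *Trim30a* in CPECs had a value in 6 settings only, where the others had 9. Neither DESeq2 nor the cells without EC or microglia marker UMIs gave a call for any of these 3. Within single clusters most calls were lost: *Ifitm1* had an adjusted p of 0.865 in ECs outside cluster 21 and 0.0866 within it, 6 of 7 called genes missed the threshold in cluster 11 of the microglia, and 3 of 3 did in cluster 17. No paired analysis was possible because the labels do not pair sham with 2VO mice.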
